A study of Glycine max with 6 samples.

Results

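Purple acid phosphatases were followed in 2 cell layers of mature soybean (Glycine max) leaves, the paraveinal mesophyll (PVM) and the palisade parenchyma (PP). The members are the soybean probe sets of an Affymetrix array whose single gene symbol is PAP followed by a number. Of 37593 soybean probe sets on the array 7 met this rule, and they measured 4 of the 6029 genes that a single symbol names on the array, PAP02, PAP14, PAP25 and PAP3. The rule names genes by symbol and contains no measured value. PAP25 had 3 probe sets, PAP3 had 2, and PAP02 and PAP14 had 1 each.

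The data came from 6 arrays, 3 for each layer, and the question posed by the design is which transcripts differ in level between the layers. All plants were untreated and were raised in growth chambers, and no mutant or transgene is named. Per the labels, leaf tissue was fixed in an ethanol and acetic acid mixture and cut into paraffin sections, from which cells of 1 layer were laser-microdissected and pooled for each sample, after which the RNA was amplified over the whole transcriptome. The 3 samples of a layer are labelled biological replicates. Plant age, cultivar, the number of plants behind a pool, and whether PVM and PP samples shared a plant are not stated in the labels. The p-values therefore measure the spread between these samples. In pooled cells of this kind, fewer cells of a type and less RNA per cell cannot be told apart.

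Purple acid phosphatases are metal-containing hydrolases that release inorganic phosphate from organic phosphate esters at acidic pH. Plants carry a family of them, many of which are secreted or vacuolar and serve to recover phosphate, and some members, called phytases, also act on phytate, the inositol phosphate in which seeds store phosphorus. The PVM is a layer of large vacuolate cells that lies between palisade and spongy tissue and links them to the veins. It is known in soybean for storing vegetative storage proteins in its vacuoles, whereas the palisade is the upper photosynthetic layer.

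The labels were checked against marker genes. Of 23 tested PVM marker probe sets (VSPA, VSPB, LOX7, LOX9 and LOXB1), 23 measured higher on the PVM arrays, and their summed intensity was 96495 to 108390 there against 42257 to 63721 on the PP arrays. The PP samples also carry a description that names paraveinal cells; titles and cell type fields say palisade, and these set the groups here. Palisade markers (CAB3, LOC547819 with the synonym LHCP, and the Rubisco activases) separated the layers less: their summed intensity was 66694 to 93962 in PVM and 108325 to 121794 in PP, with a median log2 difference of -0.25 and 8 of 11 tested probe sets lower in PVM. These differences were taken after quantile normalization. The 3 higher in PVM on that scale were both LOC547819 probe sets, by 0.12 and 0.06, and a CAB3 probe set, by 0.21. The deposited values of LOC547819 did not share this direction. Gma.4593.1.S1_x_at read 16123, 13130 and 18865 in PVM and 20038.5, 21209 and 25694.5 in PP. Gma.4593.1.S1_a_at read 14625, 11462 and 17882 in PVM and 17020.5, 17138 and 21205 in PP. PP arrays 1 and 2 correlated at 0.947 over tested probe sets, while all other pairs of arrays lay between 0.811 and 0.885. Hybridisation controls, which contain no leaf RNA, had a higher mean on the PP arrays, by 0.52 on the log2 scale of the deposited values.

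Intensities below are the deposited values of single arrays. Background on an array was the 95th percentile of the probe sets it carries for other organisms, between 11.0 and 20.7. Differences are PVM minus PP on the scale log2(intensity + 16) after quantile normalization, with the standard error (SE) from limma, and adjusted p-values cover all 25314 tested soybean probe sets with a threshold of 0.05.

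All 7 members were above background on all 3 arrays of each layer, against 47.1% of soybean probe sets above background on all 6 arrays. So the 4 genes gave signal in both layers, and no member was above background in a single layer. PAP25 and PAP3 stood well clear of background, at no less than 7.08 times its level on any array. PAP02 and PAP14 came close to it, PAP02 at 1.10 times background on PVM array 2 and PAP14 at 1.23 times on PP array 3. With background at the 99th percentile, PAP02 was above it on 2 of 3 PVM arrays and PAP14 on 2 of 3 PP arrays, and the other 5 members were above it on every array.

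**Figure D1:**
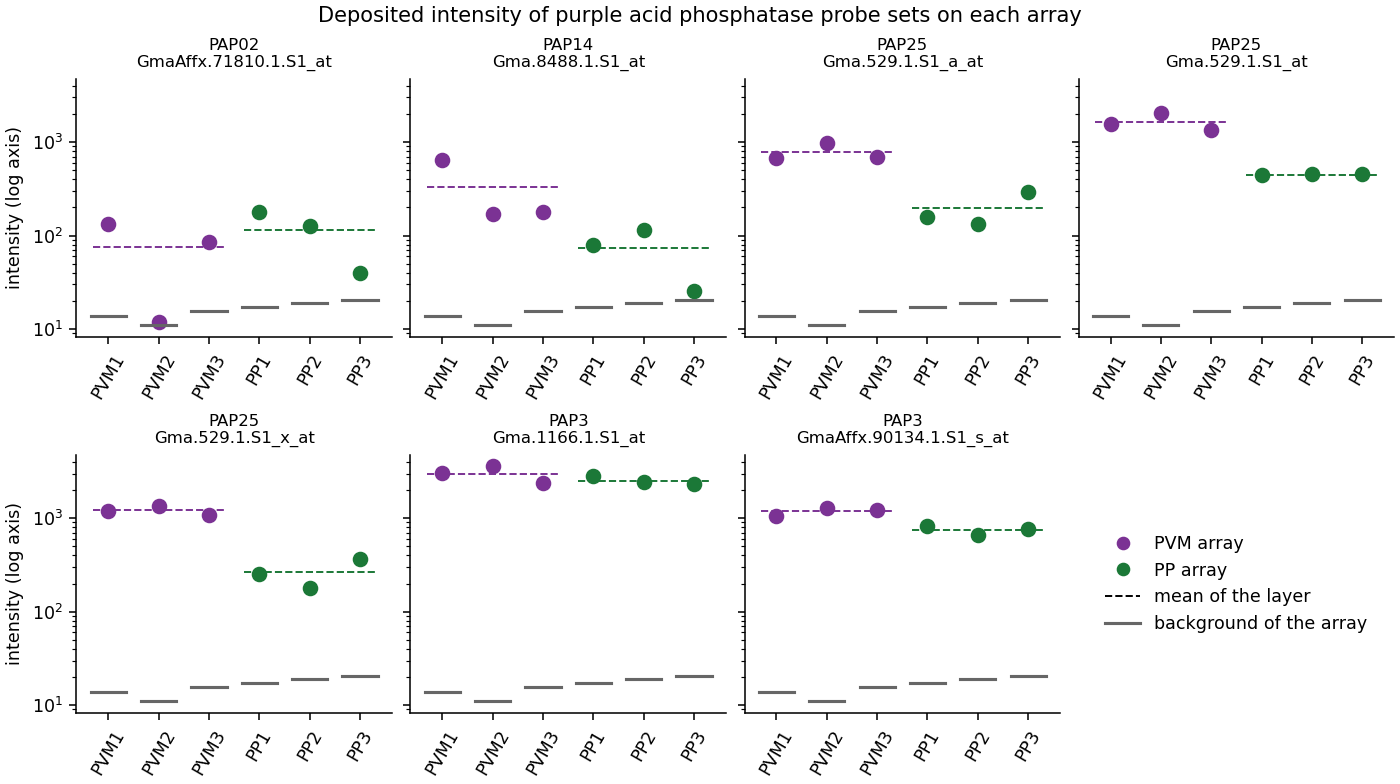
Deposited intensity (log axis) of the 7 purple acid phosphatase probe sets on each of the 6 arrays, with dashed lines for layer means and grey bars for the background of each array. The 3 PAP25 probe sets are higher on every PVM array than on any PP array, while PAP02 and probe set Gma.1166.1.S1_at of PAP3 overlap between layers.

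PAP25, whose RefSeq synonyms include phytase, measured higher in PVM on all 3 of its probe sets, but none passed the threshold. On Gma.529.1.S1_at its intensity was 1574, 2021 and 1351 on the PVM arrays and 443, 451 and 453 on the PP arrays. The layers did not overlap, and the lowest PVM array was 2.98 times the highest PP array. The PP values lay within a narrow band, 449 ± 5.61 (SD, n = 3), beside 1649 ± 341 (SD, n = 3) in PVM. The log2 difference was 1.82 (SE 0.31, 95% interval 1.10 to 2.54), a 3.53-fold level in PVM, with an adjusted p of 0.112 in limma.

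The other PAP25 probe sets, Gma.529.1.S1_a_at and Gma.529.1.S1_x_at, were designed from the same sequence record as the first, so the 3 are not separate evidence. The _a_ mark denotes probes shared among transcripts of a gene, and the _x_ mark probes that may also match other sequences. Gma.529.1.S1_a_at read 675, 983 and 684 on the PVM arrays and 157, 134 and 295 on the PP arrays, with a log2 difference of 1.92 (SE 0.40, adjusted p = 0.157 in limma). Gma.529.1.S1_x_at read 1202, 1355 and 1084 in PVM and 253, 181 and 364 in PP, and its log2 difference was 2.16 (SE 0.36, adjusted p = 0.105 in limma). On both, all PVM arrays were above all PP arrays. On both, PP array 3 stood above the other PP arrays, whereas the PP values of the first probe set were nearly equal. The 3 estimates ran from 1.82 to 2.16. Their 95% intervals come from the same arrays and do not measure the spread between probe sets. Among all tested probe sets, 1.11% to 2.16% had a larger difference in favour of PVM than the 3 PAP25 readings.

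PAP14, an enzyme reported in soybean to act on phytate, also measured higher in PVM, with a wide spread. Its intensity was 642, 170 and 178 on the PVM arrays and 80.1, 114 and 25.3 on the PP arrays. The layers did not overlap, but the lowest PVM array was only 1.50 times the highest PP array, PVM array 1 was far above the other PVM arrays, and PP array 3 was near background. The means were 330 ± 270.1 (SD, n = 3) in PVM and 73.0 ± 44.5 (SD, n = 3) in PP. The log2 difference was 1.77 (SE 0.63, 95% interval 0.30 to 3.23), with an unadjusted p of 0.0243 and an adjusted p of 0.335 in limma. Without PVM array 1 the difference was 1.16, and without PP array 3 it was 1.31.

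Markers of vascular tissue were set beside these values. Sucrose synthase (SS), an enzyme of sucrose breakdown that is abundant in phloem, read 785 on PVM array 1 and 13.9 and 13.5 on the other PVM arrays on probe set GmaAffx.90145.1.S1_s_at, and 0.426 to 18.4 on the PP arrays. Its probe set Gma.1828.1.S1_at read 117, 38.0 and 72.9 on the PVM arrays and 4.45, 13.6 and 12.6 on the PP arrays, so that all PVM arrays were above all PP arrays there. The sucrose transporter SUT1 did not share a single pattern: on GmaAffx.14280.1.S1_s_at PVM array 1 was the lowest of the PVM arrays, at 13.2, and on GmaAffx.92409.1.S1_s_at the highest, at 617. PVM array 1 was also the highest of them on the SUT1 probe set Gma.5861.1.S1_at, at 334 against 131 and 30.5, with 32.4 to 168 in PP. On the SS probe set GmaAffx.90145.1.S1_at it read 316, against 0.724 and 0.498 on the other PVM arrays. On each vascular probe set except GmaAffx.14280.1.S1_s_at, PVM array 1 was thus the highest PVM array. Of the vascular list, SS and SUT1 were on the array with 6 probe sets, whose summed intensity ran from 366 to 2182 in PVM and from 391 to 535 in PP, and 4 of 5 tested probe sets were higher in PVM. The part of vascular RNA in the PAP14 values was not tested. No gene of the epidermis and guard cell list was matched among the annotated probe sets.

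PAP3 was bright in both layers and differed little. This gene, which has phytase among its RefSeq synonyms, is known from soybean as a salt- and oxidative-stress-induced purple acid phosphatase found in mitochondria. Probe set Gma.1166.1.S1_at read 3017, 3576 and 2394 on the PVM arrays and 2798, 2458 and 2321 on the PP arrays. These ranges overlapped, and the log2 difference was 0.43 (SE 0.32, 95% interval -0.32 to 1.17, adjusted p = 0.646 in limma). Probe set GmaAffx.90134.1.S1_s_at, whose _s_ mark denotes probes that match more than 1 transcript, read 1068, 1299 and 1225 in PVM and 823, 658 and 768 in PP. There the PVM arrays were all above the PP arrays, with a log2 difference of 0.68 (SE 0.30, 95% interval -0.03 to 1.38), an unadjusted p of 0.0568 and an adjusted p of 0.426 in limma. Both PAP3 readings had the same sign, and the upper ends of their intervals allow a difference of up to 1.17 and 1.38.

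PAP02 was the member with the opposite sign. Its intensity was 131, 12.0 and 84.8 on the PVM arrays and 179, 126 and 40.2 on the PP arrays. The layers overlapped, with PVM array 2 and PP array 3 low. The means were 76.1 ± 60.1 (SD, n = 3) in PVM and 115 ± 70.2 (SD, n = 3) in PP. The log2 difference was -0.71 (SE 0.63, 95% interval -2.20 to 0.77, adjusted p = 0.708 in limma), and -0.15 without PVM array 2.

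**Figure D2:**
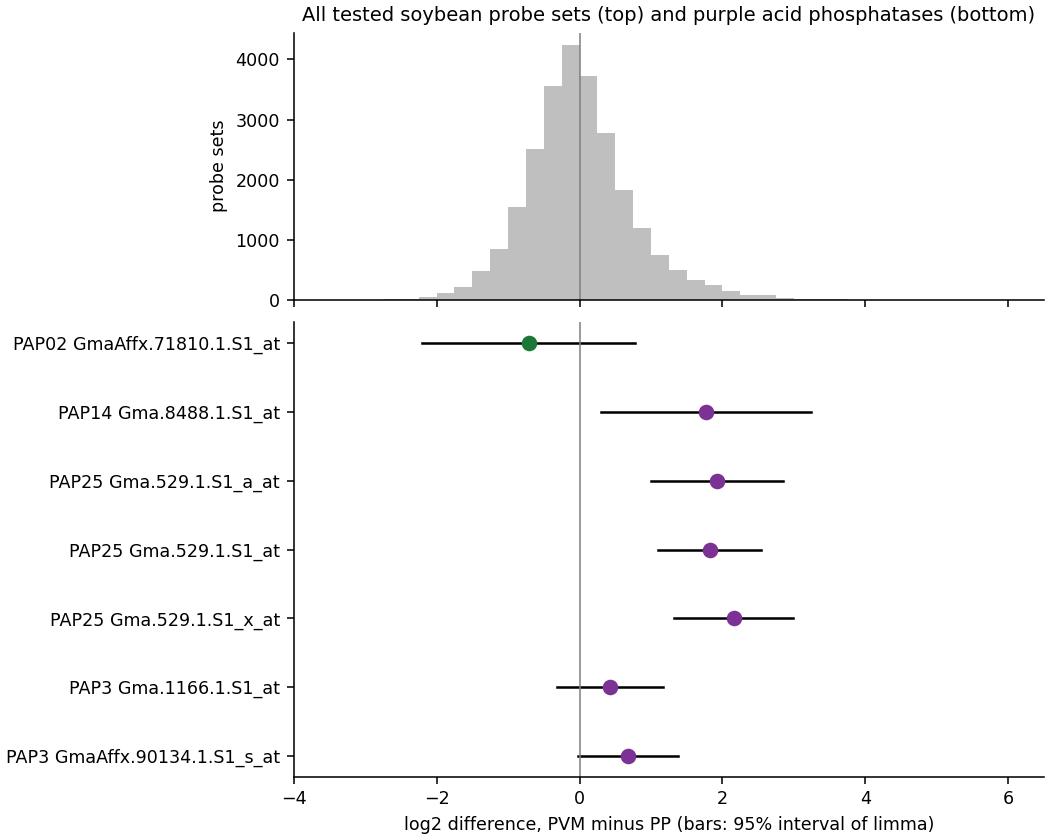
Log2 difference, PVM minus PP, over all 25314 tested soybean probe sets (top, number of probe sets per bin) and for the 7 purple acid phosphatase probe sets (bottom, points with 95% intervals from limma). The intervals of the PAP25 and PAP14 probe sets lie above 0, those of PAP3 and PAP02 include 0, and none of the 7 passed the adjusted threshold.

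Across the family, 0 of 7 probe sets passed the adjusted threshold in limma, in a comparison where 0.0435% of tested probe sets passed with a higher level in PVM and 0% with a higher level in PP. The adjusted p-values of the 7 ran from 0.105 to 0.708. At an unadjusted p under 0.05, 4 of 7 were higher in PVM, against 6.53% of tested probe sets, and 0 were higher in PP, against 5.63%. Of those 4, 3 were the PAP25 readings and 1 was PAP14. The arrays of the layers did not overlap for 5 of 7, all with PVM above PP, against 8.62% of tested probe sets, and 0 of 7 had PP wholly above PVM, against 10.1%. A positive difference was measured for 6 of 7, against 46.3% of tested probe sets. The median log2 difference was 1.77 over the 7 probe sets, 1.10 when each of the 4 genes was represented once, and -0.06 over all tested probe sets. With only 4 genes, and 3 of 7 probe sets from 1 sequence record, these counts are not counts of independent genes.

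A factor that scales a whole array largely cancels in the ratio of 2 genes within that array, whereas quantile normalization, which depends on intensity, does not cancel. The 4 genes were therefore also compared by such ratios on the deposited values, as log2(intensity + 16), with 1 probe set per gene. Between probe sets such a ratio has no meaning as a level, and its change between layers is what can be read. The ratio of PAP25 to PAP3 was higher in PVM by 1.59 on the log2 scale, with an SD of 0.07 among PVM arrays and 0.15 among PP arrays (n = 3 each), and all PVM arrays were above all PP arrays. It was the tightest of 6 gene pairs. With any 1 array left out it stayed between 1.50 and 1.65. That range does not cover the choice of probe set, as PAP3 was read here on Gma.1166.1.S1_at only. Without quantile normalization that probe set differed by 0.23 between layers, and the other PAP3 probe set, GmaAffx.90134.1.S1_s_at, by 0.67. Set against the latter, the change for PAP25 would be smaller. The ratio of PAP02 to PAP14 was lower in PVM, by a log2 change of -2.48, again with no overlap. That of PAP02 to PAP25 changed by -2.46 with no overlap, but by -1.59 without PVM array 2, where PAP02 was close to background. The ratios of PAP02 to PAP3, PAP14 to PAP25 and PAP14 to PAP3 overlapped between layers, with changes of -0.87, 0.02 and 1.61. With 1 array left out these ran from -1.34 (without PVM array 1) to -0.02 (without PVM array 2), from -0.60 (without PVM array 1) to 0.49 (without PVM array 2), and from 1.03 (without PVM array 1) to 2.06 (without PVM array 2). In an exact 2-sided permutation test the 3 pairs without overlap each had p = 0.1, the smallest value that 3 against 3 arrays allow, and 0.2 after Benjamini-Hochberg adjustment over the 6 pairs. That exact test cannot bring a single ratio past 0.05 in this design. On quantile-normalized values the change was 1.39 for PAP25 to PAP3, -1.14 for PAP02 to PAP3 and 1.34 for PAP14 to PAP3, and the other 3 pairs changed by -2.48 (PAP02 to PAP14), -2.53 (PAP02 to PAP25) and -0.05 (PAP14 to PAP25).

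**Figure D3:**
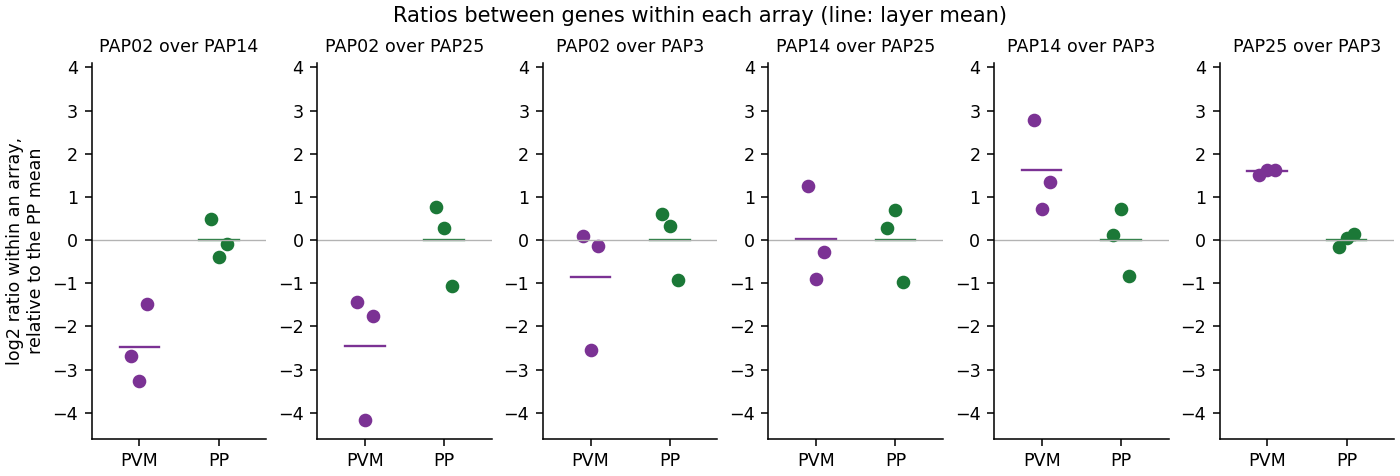
Log2 ratio of 2 purple acid phosphatase genes within each array, with 1 probe set per gene (Gma.1166.1.S1_at for PAP3). Values are shown relative to the PP mean of that pair, with lines for layer means. The PAP25 to PAP3 ratio is 1.59 higher in PVM with little spread, and PAP02 is lower in PVM relative to PAP14 and PAP25, while the other 3 pairs overlap between layers.

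The direction of each member was the same under all alternative settings, and the size for PAP25 moved little. Over these settings the differences of the PAP25 probe sets ran from 1.69 to 1.96 (Gma.529.1.S1_at), 1.69 to 2.22 (Gma.529.1.S1_a_at) and 1.91 to 2.37 (Gma.529.1.S1_x_at). With an intensity trend and a robust prior in limma, Gma.529.1.S1_at and Gma.529.1.S1_x_at passed the threshold, with adjusted p = 0.00991 and adjusted p = 0.0143, in a fit that called 0.537% of tested probe sets higher in PVM. With 64 in place of 16 added before the log they passed at adjusted p = 0.0473 and adjusted p = 0.0497. PAP14 ran from 1.16 to 2.13, the PAP3 probe set Gma.1166.1.S1_at from 0.20 to 0.58, its second probe set from 0.59 to 0.77, and PAP02 from -1.19 to -0.15.

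**Figure D4:**
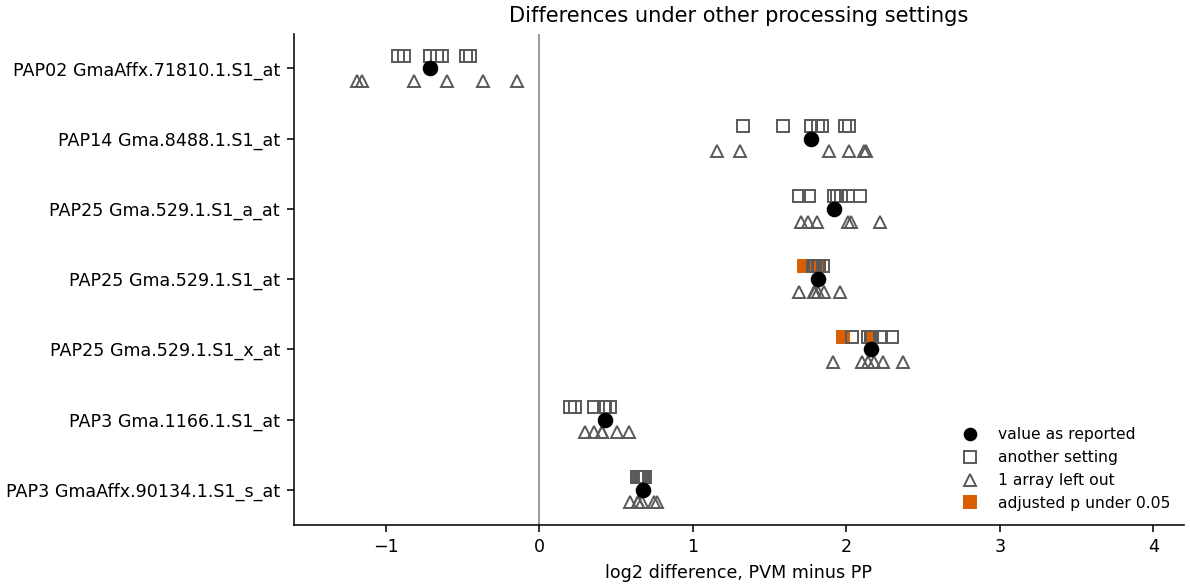
Log2 difference, PVM minus PP, of each purple acid phosphatase probe set as reported (black), under other settings (squares) and with 1 array left out (triangles). Filled orange symbols mark an adjusted p under 0.05, which only Gma.529.1.S1_at and Gma.529.1.S1_x_at of PAP25 reached, and no symbol crosses 0 from the side of the reported value.

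The family was set beside other genes of phosphate transport, signalling and use. A list of symbols gave 39 probe sets for 24 genes, of which 30 could be tested. Of these, 0 passed the adjusted threshold in limma, and the median difference was 0.49. At an unadjusted p under 0.05 in limma, 8 were higher in PVM, against 6.53% of all tested probe sets, and 3 were lower, against 5.63%. The 5 probe sets of the list with the smallest p belonged to VSPB (LOC547820) and VSPA, the vegetative storage proteins. These proteins are related to acid phosphatases but belong to another enzyme superfamily than the purple acid phosphatases. Of their 10 tested probe sets, 10 were higher in PVM, with differences of 0.64 to 2.16. They made up 7 of the 8 that were higher in PVM at an unadjusted p under 0.05 in limma. The same probe sets were among the PVM markers used above to check the labels, so their direction is not a separate result. The VSPB probe set GmaAffx.89772.8.S1_at measured 2504 ± 171 in PVM and 635 ± 198 in PP (SD, n = 3 each), a log2 difference of 2.06 (SE 0.34, adjusted p = 0.105 in limma).

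Without the storage proteins, a split made after values were seen, 9 of 20 tested probe sets were higher in PVM. The share over all tested probe sets was 46.3%, and the median of the 20 was -0.18. At an unadjusted p under 0.05 in limma, 1 of the 20 was higher in PVM and 3 were lower. The sixth smallest p belonged to DGD2, a synthase of the galactolipids that replace phospholipids when phosphate is short. Its probe set GmaAffx.91388.1.S1_s_at differed by -2.45 (SE 0.64, adjusted p = 0.226 in limma). It read 18.0, 15.9 and 170 on the PVM arrays, near background on PVM arrays 1 and 2, and 224, 341 and 406 on the PP arrays. The other DGD2 probe sets differed by -1.16, -1.08 and -0.49, the last on GmaAffx.91388.1.S1_at. Of the galactolipid synthase probe sets, 6 of 7 were lower in PVM, most of them DGD2 readings. The 3 with an unadjusted p under 0.05 in limma were all of DGD2. The DGD1 probe sets differed by -0.44 and -0.16 (adjusted p = 0.702 and adjusted p = 0.888 in limma), and that of MGD1 by 0.08. The PHR genes, MYB-related factors of a group that includes regulators of the phosphate starvation response, had a median of -0.29, with 3 of 8 probe sets higher in PVM. Among them PHR18, named after its values were seen, measured 807 ± 212 in PVM and 279 ± 91.5 in PP (SD, n = 3 each), a log2 difference of 1.45 (adjusted p = 0.240 in limma). The 3 MIPS probe sets, for the enzyme that starts inositol synthesis on the route to phytate, differed by 0.47 to 0.59. The phosphate transporters PHT1-3 and PHT1-8, the regulator SPX3 and the phytate-forming kinase IPK1 did not reach the filter for testing. G4DT, a prenyltransferase that entered the list through its synonym PT2, did not reach it either.

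**Figure D5:**
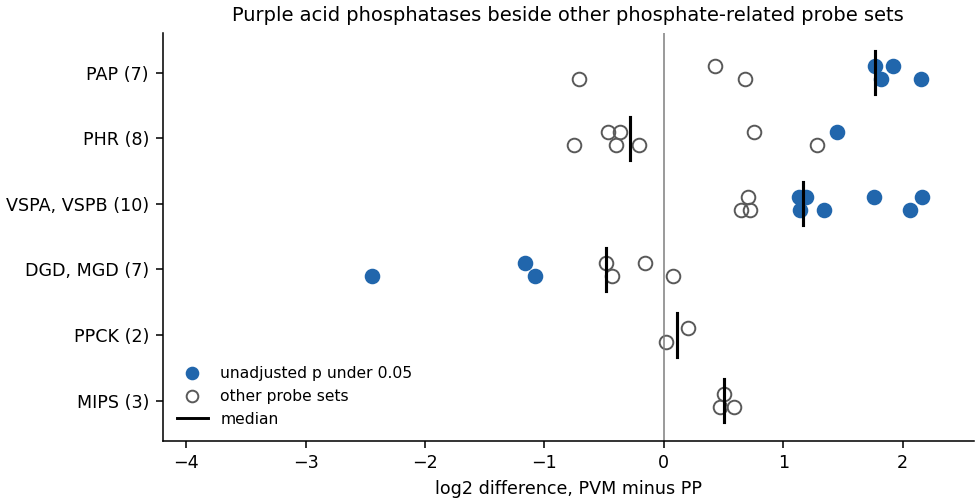
Log2 difference, PVM minus PP, of the 7 purple acid phosphatase (PAP) probe sets and of the tested probe sets of related groups, with the number of probe sets in brackets and black lines for medians. Filled points have an unadjusted p under 0.05 in limma: 4 of 7 for PAP, 7 of 10 for the storage proteins VSPA and VSPB, 1 of 8 for PHR, and 3 of 7 for the galactolipid synthases. Those 3 are all DGD2 probe sets and lower in PVM. Over all tested probe sets, 6.53% had such a p with a higher level in PVM and 5.63% with a higher level in PP.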

How the data were processed

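The authors deposited linear intensities for 61170 probe sets on each array. The program and summarisation behind them are not given in the sources used. Their 2% trimmed mean was 125 on every array, so the authors appear to have scaled them. Labelling used biotin and 1 colour, per the labels' protocols.

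Values were taken as log2(intensity + 16) and quantile-normalized over all probe sets. Testing required a soybean probe set to exceed background on 3 or more arrays of 6. Layers were compared with limma 3.58.1 in R 4.3.3 (lmFit, eBayes, 2-sided, no covariates) and Benjamini-Hochberg adjustment. The procedure was tested on simulated data. The number of arrays limits the precision.

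Symbols came from the platform annotation, matched to RefSeq (Glycine_max_v4.0) for 8652 of 9047 annotated probe sets. The deposited values name no genome build, so no coordinates are printed. Members and lists were chosen with earlier results of these data known. All 7 members are named, with values on every array, and up to 6 related probe sets by smallest p. For a gene with several probe sets, the one of the highest mean stands for it. The planned protein and promoter comparisons were not run. Alternatives covered scaling, filter, background, pseudocount, variance model, array weights, a replicate block, shared-sequence probe sets and each array left out. An alternative averaging PP arrays 1 and 2 was added after the data were seen.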

Additional observations from a re-analysis of the deposited data

How the results depend on the processing

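Every member kept its direction under all 18 alternative settings in which it could be computed. The count of members past the threshold, 0 as reported, was 2 with a pseudocount of 64 and 2 with the intensity trend and robust prior, both times PAP25 probe sets, and 0 under each other setting, including each array left out. The related list, also at 0, gave 2 and 9 calls under the same 2 settings. The median member difference, 1.77 as reported, was 1.32 with a pseudocount of 64, 1.10 without probe sets marked for shared sequence (4 members left, all above background on all arrays of PVM and of PP), and 1.16 to 1.96 with 1 array left out, lowest without PVM array 1. The related median, 0.49, was 0.25 with arrays centred on the soybean median, 0.017 without probe sets marked for shared sequence, and 0.32 to 0.50 with 1 array left out. The cause was not tested. With PP arrays 1 and 2 averaged, the median member difference was 1.76 and the adjusted p of Gma.529.1.S1_at was 0.407 by limma. The number of calls over all tested probe sets, 11, was 0 to 3 with 1 array left out, 1 with a pseudocount of 1, 54 higher and 3 lower in PVM with a pseudocount of 64, 136 and 13 with the trend, and 5 with no filter. With the replicate block it was 0, and the adjusted p of Gma.529.1.S1_at was 0.264 by limma. The deviations of same-numbered arrays from their layer means correlated at 0.02 to 0.05, too low to take the numbers as pairs here, although each array correlated best with its own number in the other layer. Whether they shared a plant or a batch is not stated in the labels. Signal near background limits PAP02 and PAP14.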

Other observations

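Another purple acid phosphatase gene was reached through its RefSeq synonyms, PAP01 and PHYTASE, and is not among the 7 members because its symbol is LOC100782338. Its probe set Gma.4063.1.S1_at read 154, 32.4 and 141 on the PVM arrays and 160, 86.4 and 204 on the PP arrays. It was above background on all 6 arrays, and the layers overlapped. The log2 difference was -0.56 (SE 0.52, 95% interval -1.78 to 0.66, adjusted p = 0.721 in limma). As for PAP02, PVM array 2 was the lowest of the 6. PAP4 and PAP36, which the RefSeq table also names, had no probe set annotated to them alone on the array, so they were not analysed here.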
